A study of Mus musculus with 4 samples.

Results

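The atrial and ventricular myosin chain isoforms of the infarcted mouse heart were followed through 9 genes, which encode 3 heavy chains (Myh6, Myh7 and Myh7b), 5 light chains (Myl1, Myl2, Myl3, Myl4 and Myl7) and Mybphl, a relative of the myosin binding proteins. They were taken by gene symbol from the platform annotation. All 9 were found, each with 1 probe, among 22206 probes carrying 19505 symbols. The groups were 2 TTg-MI hearts (genotype Tcf21iCre/Tomato/MGTH2A) and 2 Ctrl-MI hearts (genotype Tcf21iCre/Tomato). All 4 came from male mice whose left coronary artery was tied off at 8 weeks of age to cause a myocardial infarction (MI), and the whole heart was taken 3 months later. Mice whose ejection fraction was still high soon after surgery had been left out, per the labels. Both groups thus carried the Cre recombinase driven by Tcf21, a fibroblast gene of the heart, and the Tomato reporter, and only TTg-MI carried MGTH2A, known in the field as a joined cassette of 4 heart factors, Gata4, Hand2, Mef2c and Tbx5. Expression was read on Clariom S Mouse arrays, and the comparison asks how infarcted hearts with the transgene differed from those without it.

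Each muscle myosin molecule has a pair of heavy chains, whose heads split ATP and pull on actin, and each head binds 1 essential and 1 regulatory light chain. In the mouse, the adult heart uses the fast alpha heavy chain Myh6, whereas the slow beta heavy chain Myh7 belongs to the fetal ventricle and returns under strain or after injury. The chambers differ in their light chains. The ventricle uses the essential chain Myl3 and the regulatory chain Myl2, and the atria use the essential chain Myl4 and the regulatory chain Myl7. Mybphl is known as an atrial and conduction system gene.

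The values are log2 expression values, so that 1 unit is a 2-fold step, and the level of 1 gene is not set against that of another because each probe has its own brightness. Array medians lay between 6.55 and 6.62, lower quartiles between 5.41 and 5.48 and the highest values at 19.92 to 19.93. Genes within 1 unit of the highest value had little room to differ. Of 15 measured cardiomyocyte markers, 6 lay there on all 4 arrays. On Ctrl-MI replicate 2 a few genes of atrial muscle read low, although its label gives the whole heart. Over all 19505 symbols, the gap between the Ctrl-MI hearts, replicate 1 minus replicate 2, was largest for Myl4 at 8.30, followed by Sln, a regulator of the calcium pump in atrial muscle, at 6.17 and Myl7 at 4.83. The median size of this gap was 0.21, and 4 symbols exceeded 4 units. The remaining one was the protease gene Mmp12 at -4.26, named here after its value was seen. Macrophage markers (6 of 7) and fibroblast markers (3 of 9) also read more than 1 unit lower on Ctrl-MI replicate 2, and 2 of 15 atrial markers did. Among the members, 4 of the 9 did so (Myl1, Myl4, Myl7 and Mybphl). Over all symbols, 3.06% had a gap above 1 unit in either direction. The members' differences are therefore also given without single arrays where these move them.

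The isoforms differed in both directions, and 0 of the 9 passed limma's moderated test with Benjamini-Hochberg adjustment over all 22206 probes at 0.05, where 0.0045% of probes passed. The smallest adjusted p among them was 0.530, for Myh7. At an unadjusted limma p under 0.05, 3 of the 9 stood out, Myh7 lower and Myh7b and Myl7 higher in TTg-MI, where 8.25% of all probes reached this level, 5.07% lower and 3.18% higher. For the same 3 genes the TTg-MI arrays did not overlap the Ctrl-MI arrays, 2 higher and 1 lower, as was so for 38.1% of all probes, 19.4% higher and 18.7% lower. By group means 7 were higher and 2 lower in TTg-MI, and 52.3% of all probes were higher. Their median log2 difference, TTg-MI minus Ctrl-MI, was 0.29, against 0.01 over all symbols. It ran from 0.17 without TTg-MI replicate 1 to 0.54 without Ctrl-MI replicate 1. With Ctrl-MI replicate 2 left out, 5 means were higher and 4 lower.

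**Figure D1:**
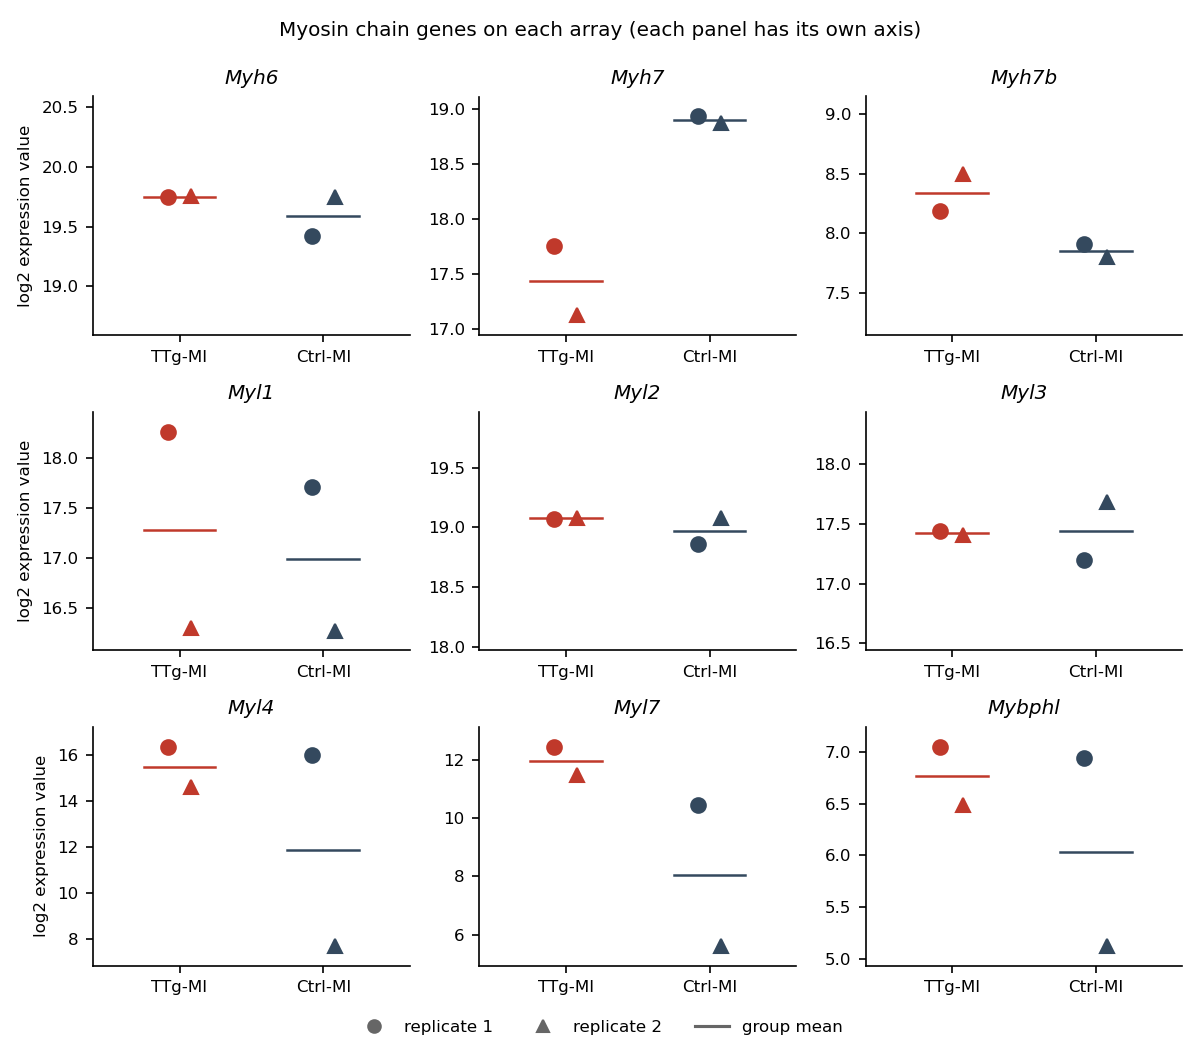
Log2 expression value (vertical axis, scaled separately in each panel) of the 9 myosin chain genes in 2 TTg-MI and 2 Ctrl-MI hearts, with circles for replicate 1, triangles for replicate 2 and a line at each group mean. Myh7 lay at 17.12 and 17.75 in TTg-MI, below 18.87 and 18.93 in Ctrl-MI, and the Ctrl-MI points of Myl4 and Myl7 lay far apart.

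Myh7, the slow beta heavy chain, was the most clearly separated of the heavy chains. It stood at 17.75 and 17.12 in TTg-MI, against 18.93 and 18.87 in Ctrl-MI. Both TTg-MI hearts lay below both Ctrl-MI hearts, and the distance between the groups exceeded the gap within either. The log2 difference was -1.46 (SE 0.24, 95% interval -2.06 to -0.87), which is 2.76-fold lower in TTg-MI (limma, unadjusted p = 0.00116, adjusted p = 0.530 with Benjamini-Hochberg). With each array left out in turn the difference ran from -1.78 to -1.15. On 1 Ctrl-MI array Myh7 was inside the top unit, so that the true difference may be larger.

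Myh6, the fast alpha heavy chain, read 19.75 and 19.76 in TTg-MI, against 19.42 and 19.75 in Ctrl-MI. The arrays of the groups overlapped, and all 4 lay within 1 unit of the highest value. The log2 difference was 0.17 (SE 0.18, 95% interval -0.27 to 0.60, adjusted p in limma 0.871), so that a modest change in either direction could not be told from none. Within each array, the ratio of Myh7 to Myh6 can be compared between groups without comparing the levels of the probes. Relative to the Ctrl-MI mean, this log2 ratio was -1.31 and -1.95 in TTg-MI, and 0.19 and -0.19 in Ctrl-MI. The mean log2 ratio differed by -1.63 with no overlap of the hearts. Since Myh6 was near the top of the scale on all 4 arrays, this ratio mostly repeats the values of Myh7. The shift runs from -1.95 to -1.31 as single arrays are left out. An exact two-sided permutation test of 2 against 2 arrays gave p = 0.333, the smallest it allows.

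Myh7b, an ancient heavy chain gene whose transcript in heart muscle is known to yield little protein, read 8.19 and 8.49 in TTg-MI, against 7.91 and 7.80 in Ctrl-MI. Both TTg-MI hearts were above both Ctrl-MI hearts. The log2 difference was 0.49 (SE 0.18, 95% interval 0.05 to 0.93, unadjusted p in limma 0.0348, adjusted p = 0.588), and it ran from 0.34 to 0.64 with single arrays left out. Myh7b and Myh7 thus differed in opposite directions by their group means.

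Each heavy chain gene carries a microRNA, and these are shown because the host transcripts are the ones measured here. The sequences come from RefSeq (GRCm38.p6) and are written 5′ to 3′ with the seed, bases 2 to 8, in capitals.
mmu-miR-208b-3p, within Myh7, chr14:54975710-54975731, minus strand: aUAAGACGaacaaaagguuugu
mmu-miR-208a-3p, within Myh6, chr14:54949072-54949093, minus strand: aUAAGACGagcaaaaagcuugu
mmu-miR-499-5p, within Myh7b, chr2:155622893-155622913, plus strand: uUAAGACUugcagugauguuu
The products of Myh6 and Myh7 share the seed UAAGACG and differ at 3 positions counted from the 5′ end, G10A, A16G and C18U, with the base of miR-208a-3p given first. The product of Myh7b has the seed UAAGACU. These microRNAs are known in the mouse as regulators of the choice between fast and slow myosin. The mature microRNAs were not analysed here, and a host's level does not give theirs.

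Among the regulatory light chains, Myl7 and Myl2 behaved differently. Myl7, the atrial chain, read 12.45 and 11.47 in TTg-MI, against 10.44 and 5.61 in Ctrl-MI. Both TTg-MI hearts were above both Ctrl-MI hearts, but the gap of 4.83 between the Ctrl-MI hearts exceeded the difference between the group means. Ctrl-MI replicate 2 lay under its array's median of 6.56 and little above the lower quartile of 5.41. A signal above background was not shown there, so that the size of a difference using this value is uncertain. The log2 difference was 3.93 (SE 1.49, 95% interval 0.22 to 7.63, unadjusted p in limma 0.0412, adjusted p = 0.588). With Ctrl-MI replicate 2 left out it was 1.51 (unadjusted p = 0.0109 in limma, adjusted p = 0.164), and with Ctrl-MI replicate 1 left out it was 6.34 (adjusted p = 0.0552 in limma). The sign of the Myl7 difference was thus the same with either control heart, while its size depended on which of them was used.

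Myl2, the ventricular chain, read 19.07 and 19.08 in TTg-MI, against 18.86 and 19.08 in Ctrl-MI. The groups overlapped, and 3 of the 4 arrays lay within 1 unit of the highest value. Its log2 difference of 0.11 (SE 0.16, 95% interval -0.30 to 0.51, adjusted p in limma 0.920) had an interval on both sides of 0. Relative to the Ctrl-MI mean, the log2 ratio of Myl7 to Myl2 was 4.31 and 3.33 in TTg-MI, and 2.53 and -2.53 in Ctrl-MI. The hearts did not overlap, and the exact permutation test again gave its smallest p, 0.333. The mean shift of 3.82 became 1.29 when Ctrl-MI replicate 2 was left out and 6.35 when replicate 1 was.

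Of the essential light chains, the atrial Myl4 read 16.34 and 14.61 in TTg-MI, against 15.99 and 7.70 in Ctrl-MI. Ctrl-MI replicate 1 lay between the TTg-MI hearts, and Ctrl-MI replicate 2 lay far below all others. The log2 difference of 3.63 (SE 2.55, 95% interval -2.72 to 9.98, adjusted p in limma 0.781) rested on that 1 heart, and without it the difference was -0.52 (adjusted p = 0.834 in limma). Without Ctrl-MI replicate 1 it was 7.78 (adjusted p = 0.119 in limma). No direction can therefore be given for Myl4.

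Myl3, the ventricular essential chain, read 17.44 and 17.41 in TTg-MI, against 17.19 and 17.69 in Ctrl-MI, with both TTg-MI hearts between the Ctrl-MI hearts. Its log2 difference was -0.01 (SE 0.21, 95% interval -0.53 to 0.50, adjusted p in limma 0.995). Unlike Myh6 and Myl2, Myl3 lay below the top unit of every array. Relative to the Ctrl-MI mean, the log2 ratio of Myl4 to Myl3 was 4.49 and 2.80 in TTg-MI, and 4.40 and -4.40 in Ctrl-MI. Its mean shift of 3.65 was -0.75 without Ctrl-MI replicate 2. The hearts overlapped in this ratio, with p = 0.667 in the exact permutation test.

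**Figure D2:**
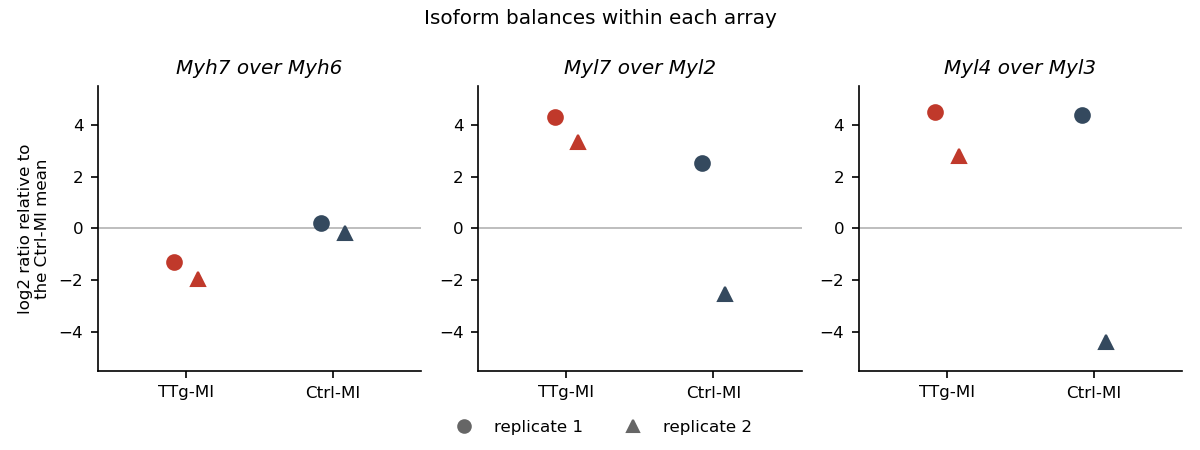
Log2 ratio of paired myosin isoforms within each array, relative to the mean of the Ctrl-MI arrays (vertical axis, the same in all panels), with circles for replicate 1 and triangles for replicate 2. The ratio of Myh7 to Myh6 lay at -1.31 and -1.95 in TTg-MI, below both Ctrl-MI hearts. That of Myl7 to Myl2 lay above both Ctrl-MI hearts in TTg-MI, and that of Myl4 to Myl3 overlapped. Both light chain ratios split the Ctrl-MI hearts.

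Myl1, the essential light chain of fast skeletal muscle that is also known from the mouse embryonic heart, read 18.27 and 16.30 in TTg-MI, against 17.72 and 16.27 in Ctrl-MI. Each group held a high and a low heart, and the groups overlapped almost fully. The log2 difference was 0.29 (SE 0.75, 95% interval -1.58 to 2.15, adjusted p in limma 0.962), and it turned to -0.70 without TTg-MI replicate 1 and to -0.43 without Ctrl-MI replicate 2. The gap of 1.97 between the TTg-MI hearts was among the larger ones, at rank 17 of the 19505 symbols in that direction. Leaving out Ckm, which heart muscle also expresses, the other 9 fast skeletal muscle markers lay between 4.79 and 7.51 on all arrays, and 0 of them passed at an unadjusted p under 0.05 in limma. None of them had a gap above 1 unit between the hearts of either group in the direction of Myl1.

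Mybphl read 7.05 and 6.49 in TTg-MI, against 6.94 and 5.13 in Ctrl-MI. As with Myl4, Ctrl-MI replicate 1 lay between the TTg-MI hearts and Ctrl-MI replicate 2 below them. That lowest value was under its array's lower quartile of 5.41, where a signal was not shown to be above background. The log2 difference was 0.73 (SE 0.59, 95% interval -0.73 to 2.20, adjusted p in limma 0.818), and without Ctrl-MI replicate 2 it was -0.18. In these bulk samples, fewer cells of a type and less RNA per cell cannot be told apart.

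**Figure D3:**
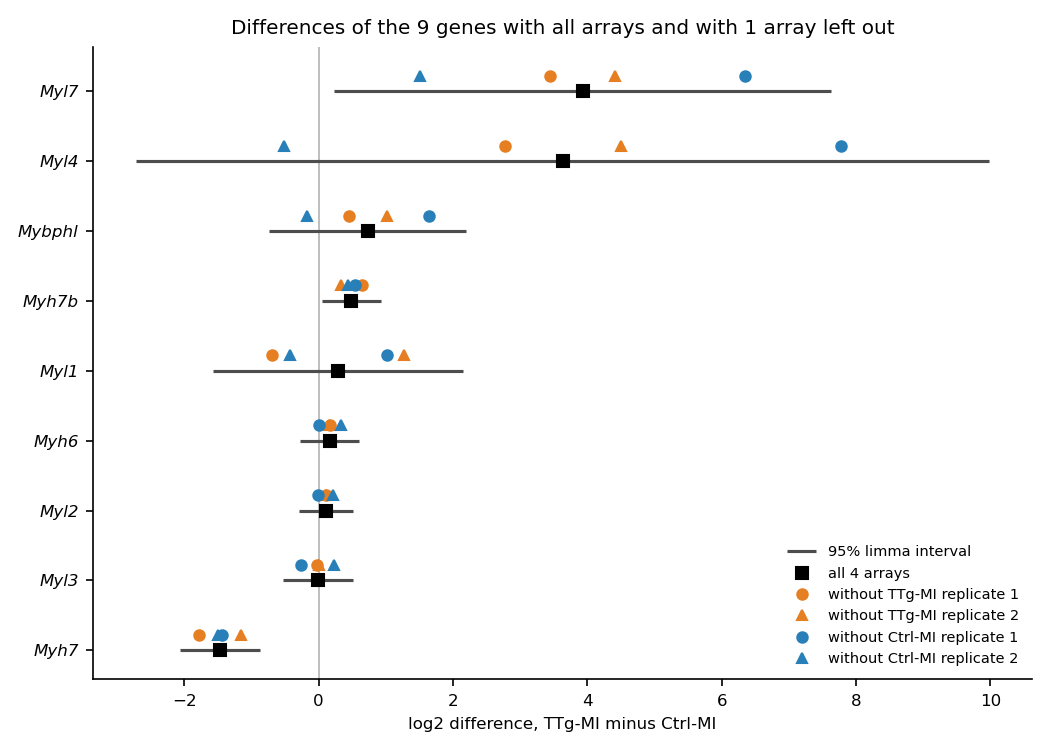
Log2 difference, TTg-MI minus Ctrl-MI (horizontal axis), of the 9 genes with all 4 arrays (squares, with 95% limma intervals) and with 1 array left out (orange without a TTg-MI array, blue without a Ctrl-MI array). Myh7 kept values from -1.78 to -1.15, while Myl4 ran from -0.52 to 7.78.

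The other atrial muscle markers help to place the light chains. Of 15 measured markers, 7 had a higher and 8 a lower mean in TTg-MI, and the median log2 difference was -0.01. Without overlap 5 were higher and 3 lower, against 19.4% and 18.7% of all probes in these directions. Without Ctrl-MI replicate 2 the means were higher for 6 and lower for 9, with a median of -0.21. Their mean level per array was 10.88 and 10.47 in TTg-MI, against 10.08 and 9.52 in Ctrl-MI. Sln followed Myl4 and Myl7, with 14.42 and 13.06 in TTg-MI, against 14.07 and 7.90 in Ctrl-MI. Its log2 difference of 2.75 was -0.33 without Ctrl-MI replicate 2. The secreted glycoprotein gene Dkk3 read 9.16 and 7.94 in TTg-MI, against 10.78 and 7.73 in Ctrl-MI. Sln and Dkk3 were the only 2 of the 15 with a gap above 1 unit between the Ctrl-MI hearts in that direction. The potassium channel gene Kcnj3 was split the other way, with 11.84 and 11.67 in TTg-MI, against 9.55 and 10.67 in Ctrl-MI. Both of its TTg-MI values still lay above both Ctrl-MI values (log2 difference 1.64, SE 0.37, adjusted p in limma 0.546). How much atrial tissue each sample held, and its part in the light chain values, was not tested.

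Several atrial markers were separated by group, 5 of them higher, Kcnj3 included, and 3 lower in TTg-MI. An unadjusted p under 0.05 in limma was reached by 5 higher and 1 lower of the 15. Over all probes these shares were 3.18% and 5.07%. Bmp10, an atrial growth factor, read 12.38 and 11.82 in TTg-MI, against 5.31 and 5.40 in Ctrl-MI, so that it was low in the control heart with high Myl4 as well. No other gene on the arrays passed the adjusted threshold (log2 difference of Bmp10 6.75, SE 0.22, adjusted p in limma 0.00489). Since both Ctrl-MI values lay under the lower quartile, the true difference may be larger. Tbx5, an atrial and conduction system factor that the transgene also encodes, read 10.68 and 9.72 in TTg-MI, against 7.62 and 7.88 in Ctrl-MI (adjusted p in limma 0.530). The lipid transfer gene Stard10 (log2 difference 1.35, SE 0.18) and the potassium channel gene Kcnj5 (0.84, SE 0.18) were likewise separated by group without passing the adjustment. Nr2f1 (-0.45, SE 0.15), Hey1 (-0.32, SE 0.16) and Gja5 (-0.24, SE 0.18) were separated the other way, lower in TTg-MI, and did not pass either. The natriuretic peptide gene Nppa, with 19.91 and 18.85 in TTg-MI, against 19.92 and 19.90 in Ctrl-MI, lay within 1 unit of the highest value on 3 of the 4 arrays.

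**Figure D4:**
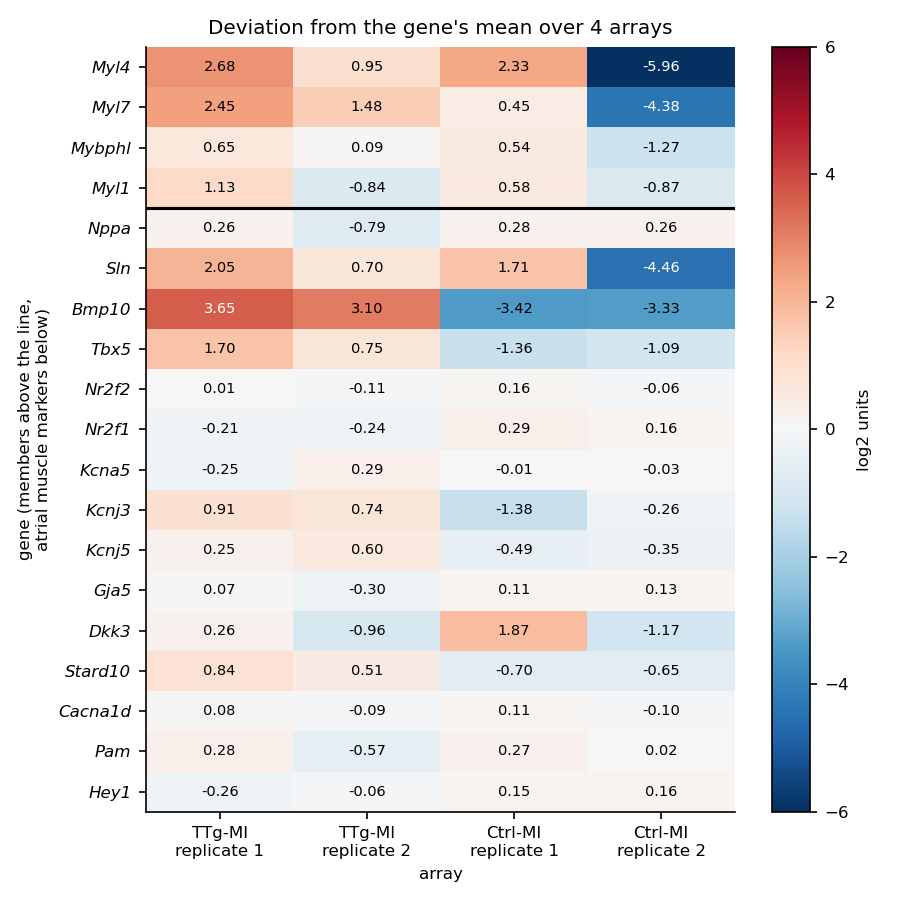
Deviation of each gene from its own mean over the 4 arrays, in log2 units (colour and printed number), for Myl4, Myl7, Mybphl and Myl1 above the line and 15 atrial muscle markers below it, with TTg-MI columns left of Ctrl-MI columns. Myl4, Myl7 and Sln were lowest on Ctrl-MI replicate 2, at -5.96, -4.38 and -4.46, while Bmp10 was low on both Ctrl-MI arrays.

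Of 10 ventricular markers measured, 8 had a higher mean in TTg-MI, 3 without overlap, against 19.4% of all probes. The median log2 difference was 0.24, and 0 had an unadjusted p under 0.05 in limma. Irx4, a ventricular transcription factor, read 9.14 and 8.998 in TTg-MI, against 8.10 and 9.06 in Ctrl-MI, so that its low heart was Ctrl-MI replicate 1. The same heart was low for Kcnip2, a potassium channel subunit gene, which read 14.44 and 14.58 in TTg-MI, against 13.48 and 14.65 in Ctrl-MI. Irx3 (log2 difference 0.60, SE 0.31), Irx5 (0.25, SE 0.15) and Ckm, a muscle creatine kinase (0.37, SE 0.18), did not pass either. Without Ctrl-MI replicate 1 the median of the ventricular list was 0.03, and 6 means were higher and 4 lower.

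Genes known, like Myh7, to be raised in fetal or strained heart muscle were lower in TTg-MI by their means for all 8 measured, of which Tnni1 was dim on every array. In 4 the groups did not overlap, against 18.7% of all probes for that direction. Their median log2 difference was -1.06, and leaving out a TTg-MI array gave -1.66 (replicate 1) or -0.64 (replicate 2). With Ctrl-MI replicate 1 left out, 7 of the 8 were lower. The skeletal actin gene Acta1 read 16.98 and 14.15 in TTg-MI, against 19.06 and 19.50 in Ctrl-MI, a difference of -3.72 (SE 0.87). Both Ctrl-MI values lay within 1 unit of the highest value, so that the true difference may be larger, and it ran from -5.14 to -2.30 with single arrays left out. Xirp2, an actin binding protein of the intercalated disc, read 12.28 and 11.02 in TTg-MI, against 14.26 and 13.25 in Ctrl-MI (-2.10, SE 0.51). Both adjusted p in limma were 0.546, and 0 of the 8 passed over all probes. TTg-MI replicate 2 was the lower heart for Myh7, Acta1 and Xirp2 alike.

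Promoters of Myh7, Myh6, Myl7 and Mybphl are shown. The first pair are the alternative heavy chains of heart muscle, and the second pair had its lowest value on Ctrl-MI replicate 2. That array was the lowest for 5 members, and the promoters of the others, Myl4, Myl1 and Myh7b, are not shown. Each runs from 250 bases before to 50 after a transcription start in RefSeq (GRCm38.p6). Capitals mark the GATA motif on either strand, which is GATA after A or T and before A or G.
Myh7 promoter, chr14:54994577-54994876, minus strand: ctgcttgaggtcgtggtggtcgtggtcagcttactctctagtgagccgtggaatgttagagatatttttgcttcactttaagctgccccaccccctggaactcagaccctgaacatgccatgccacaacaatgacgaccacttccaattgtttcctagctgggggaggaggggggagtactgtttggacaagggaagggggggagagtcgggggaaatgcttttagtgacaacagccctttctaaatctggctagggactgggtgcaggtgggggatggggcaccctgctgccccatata
Myh6 promoter, chr14:54966558-54966857, minus strand: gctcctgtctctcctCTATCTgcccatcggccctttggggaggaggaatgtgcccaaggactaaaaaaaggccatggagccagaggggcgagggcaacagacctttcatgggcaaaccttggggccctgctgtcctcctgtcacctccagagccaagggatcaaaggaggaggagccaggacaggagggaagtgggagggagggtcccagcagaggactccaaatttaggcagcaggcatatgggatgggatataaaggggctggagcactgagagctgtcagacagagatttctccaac
Myl7 promoter, chr11:5898733-5899032, minus strand: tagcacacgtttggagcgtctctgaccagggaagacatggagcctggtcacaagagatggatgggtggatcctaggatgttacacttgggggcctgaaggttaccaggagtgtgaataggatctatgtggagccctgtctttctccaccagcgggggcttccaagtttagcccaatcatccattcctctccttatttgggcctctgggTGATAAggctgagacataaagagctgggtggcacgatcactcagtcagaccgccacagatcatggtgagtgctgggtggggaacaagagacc
Mybphl promoter, chr3:108364661-108364960, plus strand: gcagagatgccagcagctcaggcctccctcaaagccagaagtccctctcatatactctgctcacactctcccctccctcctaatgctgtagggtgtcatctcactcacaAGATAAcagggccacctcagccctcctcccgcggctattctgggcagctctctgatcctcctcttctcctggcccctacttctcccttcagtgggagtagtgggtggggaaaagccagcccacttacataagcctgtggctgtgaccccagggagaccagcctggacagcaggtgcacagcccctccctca
All 9 genes had a promoter in the table. A GATA match was present in 7 of the 9, all but Myh7 and Myl4, and in 30.2% of 27025 promoters of the same length taken 1 per symbol. In Myl7 it begins at position -42 relative to the start. The T-box motif AGGTGT was found in 0 of the 9, against 13.9% of all promoters, and the MEF2 consensus motif in 0, against 3.29%. The E-box CATCTG was found in 1, Myl2, against 17.3% of all. Myh7 and Myl2 had 2 promoters each, and only the one at the outer end of the gene was searched. The lack of a GATA match in Myh7 thus covers 1 of its 2 promoters. For Myl4, Myl1 and Myh6 the start used lies 4646, 2876 and 1410 bases from the outer end of the annotated gene. Other starts may therefore exist for these genes. These matches describe the letters in the windows.

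Other myosin genes were examined to see whether the pattern reached beyond the cardiac chains. Smooth muscle and non-muscle myosin chains were lower by their means in 7 of 8 measured genes, all 7 without overlap, against 18.7% of all probes for that direction. The median log2 difference was -0.54, and it was -0.28 without Ctrl-MI replicate 1. Myh9, the main non-muscle heavy chain, read 11.34 and 10.77 in TTg-MI, against 12.45 and 11.82 in Ctrl-MI (-1.08, SE 0.29). The non-muscle light chains Myl6 (-0.89, SE 0.26), Myl12a (-0.73, SE 0.22) and Myl12b (-0.90, SE 0.35) had adjusted p in limma of 0.546 to 0.600. Of the 8, 4 had an unadjusted p under 0.05 in limma, all lower, where 5.07% of all probes were. Without Ctrl-MI replicate 1 the differences of Myl6 and Myl12b were -0.55 and -0.39. The markers of fibroblasts, which use these chains, were lower as well. All 9 measured were lower in TTg-MI without overlap, against 18.7% of all probes. Their mean level was 12.09 and 11.03 in TTg-MI, against 13.48 and 12.59 in Ctrl-MI, and their part in the myosin values was not tested.

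Skeletal myosin chains lay near the dim end of the arrays, between 4.79 and 6.40 for all 8 genes, and 0 had an unadjusted p under 0.05 in limma. Myh4, a fast skeletal heavy chain, read 5.87 and 5.72 in TTg-MI, against 5.67 and 5.49 in Ctrl-MI. Myh1 (log2 difference 0.16, SE 0.16), Myh13 (0.17, SE 0.20) and the perinatal chain Myh8 (-0.11, SE 0.23) differed by no more than about their standard error.

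Of 8 measured partners of myosin in the thick filament, 3 had a higher and 5 a lower mean in TTg-MI, with a median log2 difference of -0.11. Without overlap 3 were lower and 1 higher, against 18.7% and 19.4% of all probes. An unadjusted p under 0.05 in limma was reached by 2, both lower, where 5.07% of all probes were. These were Mybpc2, the myosin binding protein of fast skeletal muscle (-0.53, SE 0.19), and Myom2, which encodes an M-band protein that links thick filaments. Myom2 read 15.12 and 14.77 in TTg-MI, against 15.33 and 15.76 in Ctrl-MI (-0.60, SE 0.22, adjusted p in limma 0.588). Its relative Myom1 read 16.58 and 16.61 in TTg-MI, against 16.31 and 16.40 in Ctrl-MI (0.24, SE 0.15), and Myom3 differed by -0.22 (SE 0.15).

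Of 10 genes for myosin phosphorylation and folding, 5 were higher and 5 lower by their means, with a median log2 difference of 0.03. Smyd1, a muscle methyltransferase that acts with the myosin chaperone Unc45b, read 15.34 and 15.53 in TTg-MI, against 14.24 and 14.94 in Ctrl-MI (0.84, SE 0.26, adjusted p in limma 0.557). Without Ctrl-MI replicate 1 the difference was 0.49. Mylk2, the skeletal myosin light chain kinase (-0.44, SE 0.17), the chaperone gene Hsp90aa1 (-0.68, SE 0.28) and Ppp1r12b, a subunit of myosin phosphatase (0.57, SE 0.29), followed. Mylk2 lay near the dim end of the arrays, with 5.64 and 5.43 in TTg-MI, against 6.08 and 5.87 in Ctrl-MI. Ppp1r12b differed by 0.16 without Ctrl-MI replicate 1, and Hsp90aa1 by -0.31 when TTg-MI replicate 1 was left out. The difference in Smyd1 was separated by group, whereas Mylk3, the heart's own light chain kinase, overlapped, with 11.39 and 12.23 in TTg-MI, against 11.84 and 12.55 in Ctrl-MI.

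**Figure D5:**
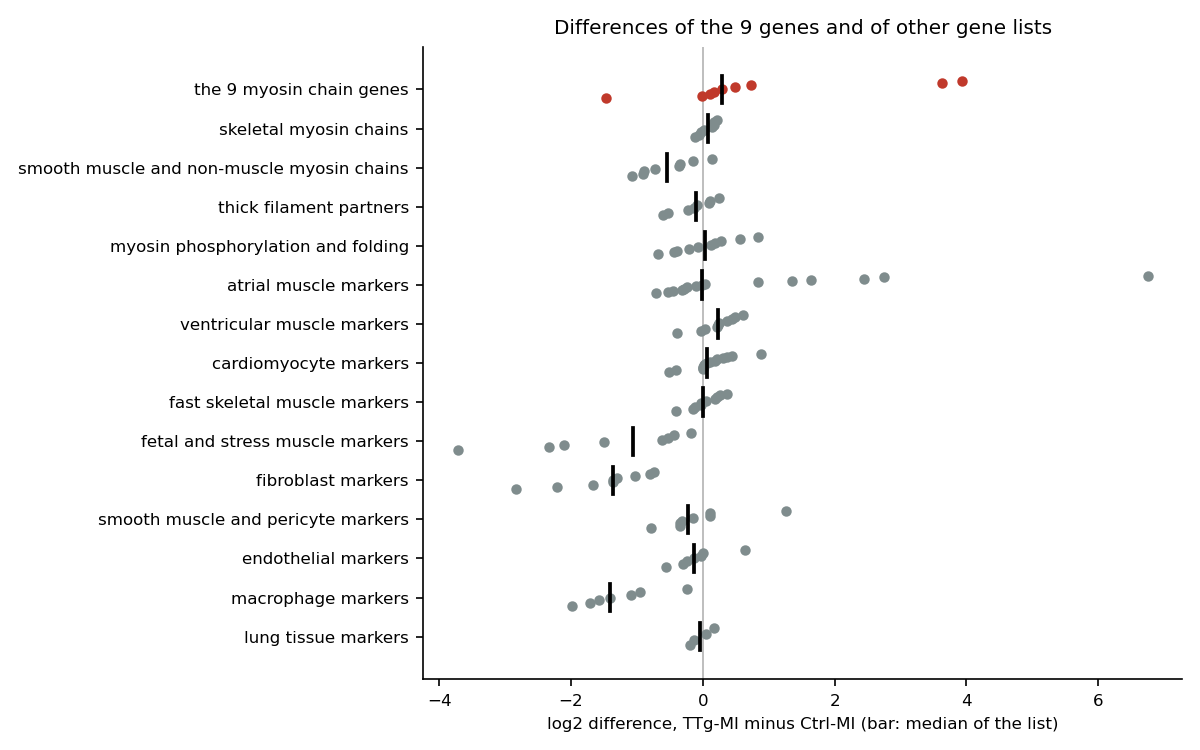
Log2 difference, TTg-MI minus Ctrl-MI (horizontal axis), of the 9 myosin chain genes (red points) and of genes in other lists (grey points), with a bar at each list's median. The median was 0.29 for the 9 genes, -0.54 for smooth muscle and non-muscle myosin chains and -1.06 for fetal and stress muscle markers.

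Likeness to a member was measured as the Euclidean distance between log2 values centred on each gene's mean over the 4 arrays, among genes at or above the median level of all probes. The genes nearest to Myl7 were Sln at a distance of 1.53 and Myl4 at 2.53, followed by Hamp at 3.62, Tbx5 at 3.89 and Gpr158 at 3.97. Tbx5 did not share the split of the Ctrl-MI hearts. Relative to each gene's mean, these lay at -1.36 and -1.09 for Tbx5, but at 0.45 and -4.38 for Myl7. Hamp, the iron regulator hepcidin, read 9.36 and 8.49 in TTg-MI, against 7.96 and 6.92 in Ctrl-MI. The genes nearest to Myh7 were Mpeg1, a pore-forming protein of macrophages, at 0.15, the matrix proteoglycan gene Vcan at 0.26, the collagen hydroxylase gene P3h2 at 0.29, the lysosomal enzyme gene Hexa at 0.34 and the kinase gene Prkcd at 0.35. Mpeg1 read 6.30 and 5.60 in TTg-MI, against 7.28 and 7.29 in Ctrl-MI. With only 4 arrays, many genes can lie close to any given profile.

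Markers of other cell types in the heart varied beside the myosin genes as follows. Macrophage markers had a lower mean in TTg-MI for all 7 measured, 6 without overlap, against 18.7% of all probes. Their median log2 difference of -1.40 became -0.61 when Ctrl-MI replicate 1 was left out and -2.15 when replicate 2 was. Their mean level was 8.93 and 8.23 in TTg-MI, against 10.45 and 9.27 in Ctrl-MI. Endothelial markers were higher for 2 and lower for 5 of 7, with a median log2 difference of -0.14. Smooth muscle and pericyte markers were higher for 3 and lower for 5 of 8, with a median of -0.23. Cardiomyocyte markers were higher for 13 and lower for 2 of 15, with a median of 0.07, where 52.3% of all probes were higher. With Ctrl-MI replicate 1 left out, 7 were higher and 8 lower, and the median was -0.0018. All 4 lung markers, a check on the dissection, lay between 4.999 and 6.03. The part of these markers in the Myh7 difference was not tested.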

How the data were processed

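RNA of 4 whole hearts was hybridised to Clariom S Mouse arrays, with a biotin label. The deposited table holds 1 value per probe and array, which the authors made, per the submitters' processing notes, with Affymetrix Expression Console 1.4. These deposited values were taken as log2, a base inferred from their range. The sources used here do not give the normalization, the summarization or the genome build. No read depth applies to arrays, whose number limits the precision. Values were used as deposited.

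TTg-MI was compared with Ctrl-MI on every probe in limma 3.58.1 (R 4.3.3; lmFit and eBayes, two-sided), and p-values were adjusted by Benjamini-Hochberg across the 22206 probes, with 0.05 as the threshold. The fit had 2 residual and 3.56 prior degrees of freedom and was tested on simulated data. Names came from the platform annotation. Where a gene had several probes the one with the highest mean was used. The members and gene lists were chosen with earlier results of these data known. Named genes were the members, up to 4 genes with the smallest p of each myosin, thick filament, atrial or ventricular list, up to 2 of each other list, and the 5 genes most like Myl7 and Myh7. Genes otherwise named (Mmp12, Dkk3, Nppa, Kcnj3, Nr2f1, Hey1, Gja5, Kcnip2 and Mylk3) were chosen after their values were seen. List genes not matched to a probe were not analysed here. Alternatives were median centring, quantile normalization, leaving out dim probes, an intensity trend with a robust prior, the replicate block, an ordinary linear model, a threshold of 0.1 and leaving out each array. After the data were seen, the lists were also computed with each array left out.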

Additional observations from a re-analysis of the deposited data

How the results depend on the processing

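No member passed the adjusted threshold under any alternative run, the threshold of 0.1 included, and in limma 3 had an unadjusted p under 0.05 with all arrays. The smallest adjusted p of a member ranged from 0.0552 (Myl7 without Ctrl-MI replicate 1) to 1.0 (without TTg-MI replicate 2). Over all probes, limma called 1 gene, against 4 with an intensity trend and robust prior, 7 with the replicate number as a block and 0 in the ordinary linear model, and 1 to 332 with an array left out, the last without Ctrl-MI replicate 2. With the replicate block 0 members passed, and the smallest adjusted p was 0.0877. The numbers were not taken as pairs: only 2 pairs exist, and the deviations of same-numbered arrays correlated at 0.163 across probes. Replicate 1 read above replicate 2 in both groups for 5 of the 9 members, a count for which no share over all probes is given here. The same held for 9 of 9 fibroblast, 6 of 7 macrophage and 1 of 15 cardiomyocyte markers. With the block, the unadjusted p in limma was 0.00287 for Myl7 and 0.0371 for Myl4, against 0.0412 and 0.208 without it. The 3 members without overlap numbered 4 to 8 as arrays were left out, since a lone array overlaps less often. The shift of the Myl4 to Myl3 balance turned to -0.7497 without Ctrl-MI replicate 2, within a range of -0.7497 to 8.0408. Of 36 member differences with 1 array left out, 7 in 5 genes changed sign. Their ranges were -0.5182 to 7.7796 for Myl4, -0.1751 to 1.6372 for Mybphl, -0.6981 to 1.2741 for Myl1, -0.2613 to 0.2315 for Myl3 and -0.0055 to 0.2182 for Myl2. Without Ctrl-MI replicate 2 the sign turned for Myl4, Mybphl, Myl1 (-0.4339) and Myl3, without TTg-MI replicate 1 for Myl1, without TTg-MI replicate 2 for Myl3 (0.0004) and without Ctrl-MI replicate 1 for Myl2. Under the other settings 0 of 54 changed sign. As each member has 1 probe, the mean over probes gave no further value. Myh6, Myl2 and 1 Ctrl-MI value of Myh7 are limited by the top of the scale. Mybphl and 1 Ctrl-MI value of Myl7 are limited by its low end.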
